A study of Mus musculus with 4 samples.

Results

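The Siglec family was described through SMAD4 binding in alveolar macrophages (AMs) of the mouse, which live on the air side of the lung. The members were 6 genes, Siglecf, Siglec1, Siglece, Siglecg, Cd33 and Cd22, of 20923 curated protein-coding genes. A SMAD4 peak was counted for a member when its summit, the point of highest signal, lay in the gene body or within 50 kb of a transcription start site (TSS) of the gene in the curated RefSeq annotation of build mm10. By this rule, 16 of 16369 peaks of replicate 1 and 23 of 19015 peaks of replicate 2 belonged to the family. Where peaks of both replicates had 1 bp or more in common, they were joined into a shared region, and 15 of the 10964 shared regions were Siglec regions.

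AMs were collected by bronchoalveolar lavage and flow sorting from lungs of wild-type C57BL/6J mice aged 9 weeks, with no treatment and no second genotype. Binding of SMAD4, the common partner through which receptor-activated SMADs pass TGFβ signals to genes, was measured by HT-ChIPmentation, in which the transposase Tn5 adds sequencing adapters to chromatin still held on the beads. The 4 samples were 2 immunoprecipitated SMAD4 libraries and 2 inputs without antibody, and the sources do not say whether replicates came from separate animals. The series' design text and the study's methods name different suppliers for the SMAD4 antibody, the design text a combination of antibodies. Peaks show where SMAD4 was bound and do not measure expression.

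Siglecs are cell surface lectins of the immunoglobulin superfamily that bind sialic acid, the sugar that caps many glycans of the host. Most carry inhibitory tyrosine motifs in the cytoplasmic tail, which are phosphorylated by Src family kinases and recruit the phosphatases SHP-1 and SHP-2, so that binding to host glycans dampens activation of the cell. Siglec-F, the product of Siglecf, is a standard surface marker of mouse AMs and eosinophils. Siglec1 encodes sialoadhesin (CD169), which has no such motif and marks macrophages of lymph nodes and spleen, while Cd22 and Siglecg encode inhibitory receptors of B cells.

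SMAD4 peaks were found at 5 of the 6 genes, and the strongest lay at Cd33, not at Siglecf. The windows of Cd33 and Siglece each held 5 shared regions, that of Siglecf held 3, that of Siglecg 2 and that of Siglec1 1. Cd22 had no peak in either replicate. One region lay in the windows of both Siglecf and Siglecg and was counted once in the total. For comparison, 39.1% of all protein-coding genes had at least 1 shared region in the same kind of window, and 35% of those with a body under 20 kb, as all 6 members have. At least 5 shared regions were found for 3.33% of genes, against 2 of the 6 members. The median was 2.5 regions per member and 0 over all protein-coding genes. The windows of neighbouring members overlap, so the genes are not independent of each other.

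**Figure D1:**
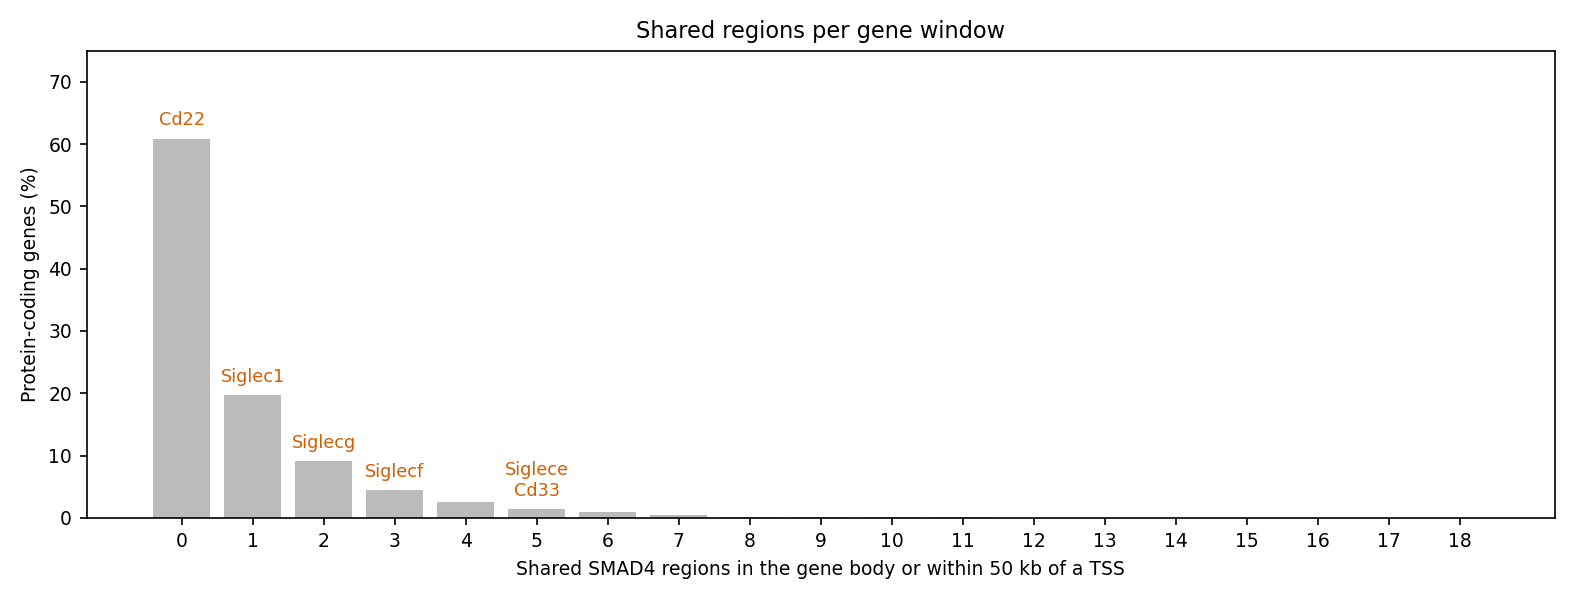
Share of curated protein-coding genes (vertical axis, %) by the number of shared SMAD4 regions in the gene body or within 50 kb of a TSS (horizontal axis), with each Siglec gene written above the bar of its own number. Cd22 stands with the 60.9% of genes that had none, and Siglece and Cd33 with the 1.36% that had 5.

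A region within a window need not belong to the gene. By the closest curated TSS, 8 of the 15 Siglec regions were nearest to a member: 5 to Cd33 and 1 each to Siglecf, Siglecg and Siglec1. The other 7 were nearest to Zfp715, Gm38999, Zfp819, Ceacam18, Klk14 or, for 2 of them, Ctu1. Siglece and Cd22 were nearest to none. A shared region was nearest to the TSS of 4 of the 6 members and of 21.5% of all protein-coding genes.

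The sequences around 6 regions are shown because they carry the strongest binding of the family, at Cd33 and Siglece, the intronic and the upstream region of the AM marker Siglecf, and the only region of Siglec1. Each is the plus strand of mm10, 100 bp to each side of the region's position, the mean of both summits. Capitals mark every match, on either strand, to 1 of 13 short strings bound by macrophage transcription factors or SMADs, which are described further on. Cd33, Siglece and Siglec1 are transcribed from the minus strand, so that their genes read from right to left. In order, the windows are chr7:43546080-43546280, chr7:43530413-43530613, chr7:43670168-43670368, chr7:43331153-43331353, chr7:43353072-43353272 and chr2:131086752-131086952.
Cd33, 13.0 kb upstream: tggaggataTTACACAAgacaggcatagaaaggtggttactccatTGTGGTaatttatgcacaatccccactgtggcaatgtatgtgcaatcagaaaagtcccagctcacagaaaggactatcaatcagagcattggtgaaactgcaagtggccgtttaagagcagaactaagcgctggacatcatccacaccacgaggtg
Cd33, 2.7 kb downstream: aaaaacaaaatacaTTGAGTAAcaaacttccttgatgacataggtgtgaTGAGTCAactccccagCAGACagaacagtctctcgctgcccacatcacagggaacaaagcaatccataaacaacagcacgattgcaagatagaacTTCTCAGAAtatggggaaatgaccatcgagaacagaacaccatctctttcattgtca
Siglece, 10.1 kb upstream: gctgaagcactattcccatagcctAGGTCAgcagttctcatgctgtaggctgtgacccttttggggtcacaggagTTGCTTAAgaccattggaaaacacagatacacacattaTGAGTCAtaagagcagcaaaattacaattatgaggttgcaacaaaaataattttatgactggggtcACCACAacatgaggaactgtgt
Siglecf, 20.1 kb upstream: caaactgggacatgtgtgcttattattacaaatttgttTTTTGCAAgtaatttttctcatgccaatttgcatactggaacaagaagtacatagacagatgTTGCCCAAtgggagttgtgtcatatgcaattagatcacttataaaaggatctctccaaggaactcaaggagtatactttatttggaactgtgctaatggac
Siglecf, 1.8 kb downstream: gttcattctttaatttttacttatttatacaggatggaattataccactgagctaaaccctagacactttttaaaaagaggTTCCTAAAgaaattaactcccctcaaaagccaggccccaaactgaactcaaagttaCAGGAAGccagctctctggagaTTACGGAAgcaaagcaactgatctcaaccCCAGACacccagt
Siglec1, 0.1 kb upstream: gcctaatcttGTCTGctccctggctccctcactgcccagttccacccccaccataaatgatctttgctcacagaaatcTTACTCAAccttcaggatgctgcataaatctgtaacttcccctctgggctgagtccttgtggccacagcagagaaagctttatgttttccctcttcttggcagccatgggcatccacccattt

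Cd33 (GeneID 12489, chr7:43527456-43533171, minus strand) encodes the founding member of the CD33-related Siglecs, a myeloid receptor. Its strongest region, chr7:43545444-43546683, was intergenic and lay 13.0 kb upstream of the TSS. Fold enrichment, the authors' ratio of the fragments stacked at the summit to the control level with 1 added to each, was 48.1 in replicate 1 and 69.9 in replicate 2, a mean of 59.0 ± 15.4 (SD, n = 2), with 147 and 154 fragments. Ranked by the smaller of both folds, it was number 4 of all 10964 shared regions, and numbers 4 and 6 in the separate replicates. Among protein-coding genes only 4 (Hcar1, Hcar2, Lyz1 and Lyz2) had a stronger region in their window. At 1240 bp it was also the longest Siglec region, with summits of the replicates 10 bp apart.

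A weaker neighbour was separated from it by a gap of 171 bp. That region, chr7:43544313-43545272, lay 11.6 kb upstream of the TSS and had folds of 13.7 and 17.6 with 45 and 41 fragments. The second strongest Siglec region was inside the Cd33 gene, in intron 3 at chr7:43530206-43530887, 2.7 kb downstream of the TSS. It had folds of 25.7 and 47.8 (36.8 ± 15.7, SD, n = 2) with 78 and 105 fragments, and ranked number 162. Both of the strongest Cd33 regions thus lay outside the promoter, and in both the value was higher in replicate 2.

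The Cd33 promoter itself was bound more weakly. The region chr7:43533114-43533398, 63 bp upstream of the TSS, had folds of 6.50 and 8.57 with 19 and 18 fragments, close to the medians of 6.82 and 9.48 over all shared regions. The fifth region, chr7:43538607-43538848, 5.5 kb upstream, had folds of 4.22 and 5.87 with 12 fragments in each replicate, one of the weakest of the family. Replicate 2 had 1 more peak in the window, 46.4 kb upstream, with a fold of 4.06 from 8 fragments. It overlapped the promoter of Zfp719 and had no partner in replicate 1.

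The distance to Cd33 depends on the gene model. A GENCODE transcript of Cd33 starts at chr7:43544428, further upstream than the curated RefSeq TSS at 43533171. Measured from it, the region at 11.6 kb lay 302 bp upstream and the strongest region 1752 bp upstream. A predicted RefSeq transcript starts at 43537424 and puts the strongest region 8756 bp upstream. Under each of these annotations, all 5 regions were nearest to Cd33. Which start is used in AMs was not tested.

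Siglecf (GeneID 233186, chr7:43351341-43359470, plus strand) had 3 shared regions in its window, and 1 of them lay in the gene. That region, chr7:43353038-43353456, was in intron 5, 1.8 kb downstream of the TSS. Its fold was 4.18 in replicate 1 and 10.2 in replicate 2 (7.20 ± 4.28, SD, n = 2), with 13 and 25 fragments over control levels of 2.35 and 1.54. These replicates differed by 2.45 times, the largest ratio among the 15 Siglec regions, and their summits lay 115 bp apart. It ranked number 10244 by the smaller fold and number 5024 by replicate 2 alone.

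The stronger region of Siglecf, chr7:43331049-43331498, was intergenic and lay 20.1 kb upstream. It had folds of 12.0 and 15.3 (13.7 ± 2.35, SD, n = 2) with 36 and 33 fragments, and ranked number 1631. The TSS of Zfp715, a zinc finger gene on the other strand, was nearer at 17953 bp. The promoter of Zfp715 held 1 further peak, in replicate 2 only, with a fold of 5.87 from 12 fragments. No peak of either replicate had its summit within 1 kb of the Siglecf TSS.

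The third region in the Siglecf window lay between Siglecf and Siglecg, 8.6 kb upstream of Siglecg (GeneID 243958, chr7:43408239-43418349, plus strand), and was nearest to Siglecg. At chr7:43399381-43399854 it had folds of 7.15 and 11.3 with 21 and 26 fragments, just above the median of all shared regions. The second Siglecg region, chr7:43420032-43420253, lay beyond the end of the gene, 11.8 kb downstream of the TSS and nearest to Gm38999. It had folds of 4.55 and 6.32 with 13 fragments in each replicate. Siglecg, whose product is best known from B-1 cells, thus had no peak in its body or promoter, and both of its peaks in each replicate had a partner.

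Siglece (GeneID 83382, chr7:43651070-43660161, minus strand) encodes Siglec-E, an inhibitory receptor of neutrophils, monocytes and macrophages. None of its 5 shared regions was in the gene or nearest to its TSS. The strongest, chr7:43669977-43670621, lay 10.1 kb upstream and had folds of 17.2 and 20.5 (18.9 ± 2.32, SD, n = 2) with 52 and 48 fragments, at rank 655. It was 1763 bp from the TSS of Ctu1, a tRNA thiolation gene. The next, chr7:43667218-43667501, 7.2 kb upstream, was the only Siglec region with the higher fold in replicate 1, 9.75 against 8.12, from 29 and 17 fragments. The farthest upstream, chr7:43685239-43685817, 25.4 kb from the TSS and nearest to the kallikrein gene Klk14, had folds of 7.47 and 13.1.

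Downstream of Siglece, 2 regions lay in introns of other genes. The region chr7:43637056-43637592 was in intron 2 of Ceacam18, 22.8 kb downstream, with folds of 13.6 and 15.8 from 41 and 34 fragments. The region chr7:43613958-43614684 was in an intron of Zfp819, 45.6 kb downstream, with folds of 10.1 and 16.7 from 30 and 36 fragments. Siglece also had the most peaks without a partner. Replicate 1 had 1, 3.9 kb upstream, with a fold of 5.85 from 17 fragments, and replicate 2 had 3. Of these, the peak chr7:43654541-43654875, with a fold of 7.67 from 16 fragments, was the only peak inside the Siglece gene, and another lay 4.9 kb upstream with a fold of 5.87, without overlap with that of replicate 1.

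Siglec1 (GeneID 20612, chr2:131069220-131086765, minus strand) was bound at its promoter, at a low level and with little overlap between the replicates. The shared region, chr2:131086680-131087030, had folds of 4.55 and 6.77 (5.66 ± 1.57, SD, n = 2) with 13 and 14 fragments, at rank 9114. The peak of replicate 1 ended at 131086799 and that of replicate 2 began at 131086741. Their summits, 18 bp downstream and 192 bp upstream of the TSS, were 210 bp apart, the widest separation among the Siglec regions. When summits had to lie within 100 bp of each other, when both peaks had to overlap by 50%, or when a fold of 5 was required in both replicates, Siglec1 had 0 shared regions.

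Siglec1 was also the member that differed most between replicates in its count, with 1 peak in replicate 1 and 4 in replicate 2. The additional peaks of replicate 2 lay 4.4 kb upstream, with a fold of 7.22 from 15 fragments, and 49.5 and 49.7 kb downstream, with folds of 7.67 and 4.19 from 16 and 9 fragments. The downstream pair was at the edge of the window and nearest to Mir6973b.

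Cd22 (GeneID 12483, chr7:30865404-30880342, minus strand), a brake on B cell receptor signalling, lay 12.5 Mb from the other Siglec genes of chromosome 7. Its nearest peak was 54713 bp from a TSS in replicate 1 and 54882 bp in replicate 2, just outside the window. These peaks formed a shared region next to the TSS of Ffar2, with folds of 9.42 and 7.67. On the other side, a region 55.6 kb away had folds of 7.80 and 14.0 and lay in the window of Mag, which encodes the Siglec of myelin and is a neighbour of Cd22. Near the other members, the regions closest to the limit from outside were 51.7 kb from Cd33, with folds of 8.53 and 14.6, and 52.0 kb from Siglece, with folds of 6.82 and 8.12.

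**Figure D2:**
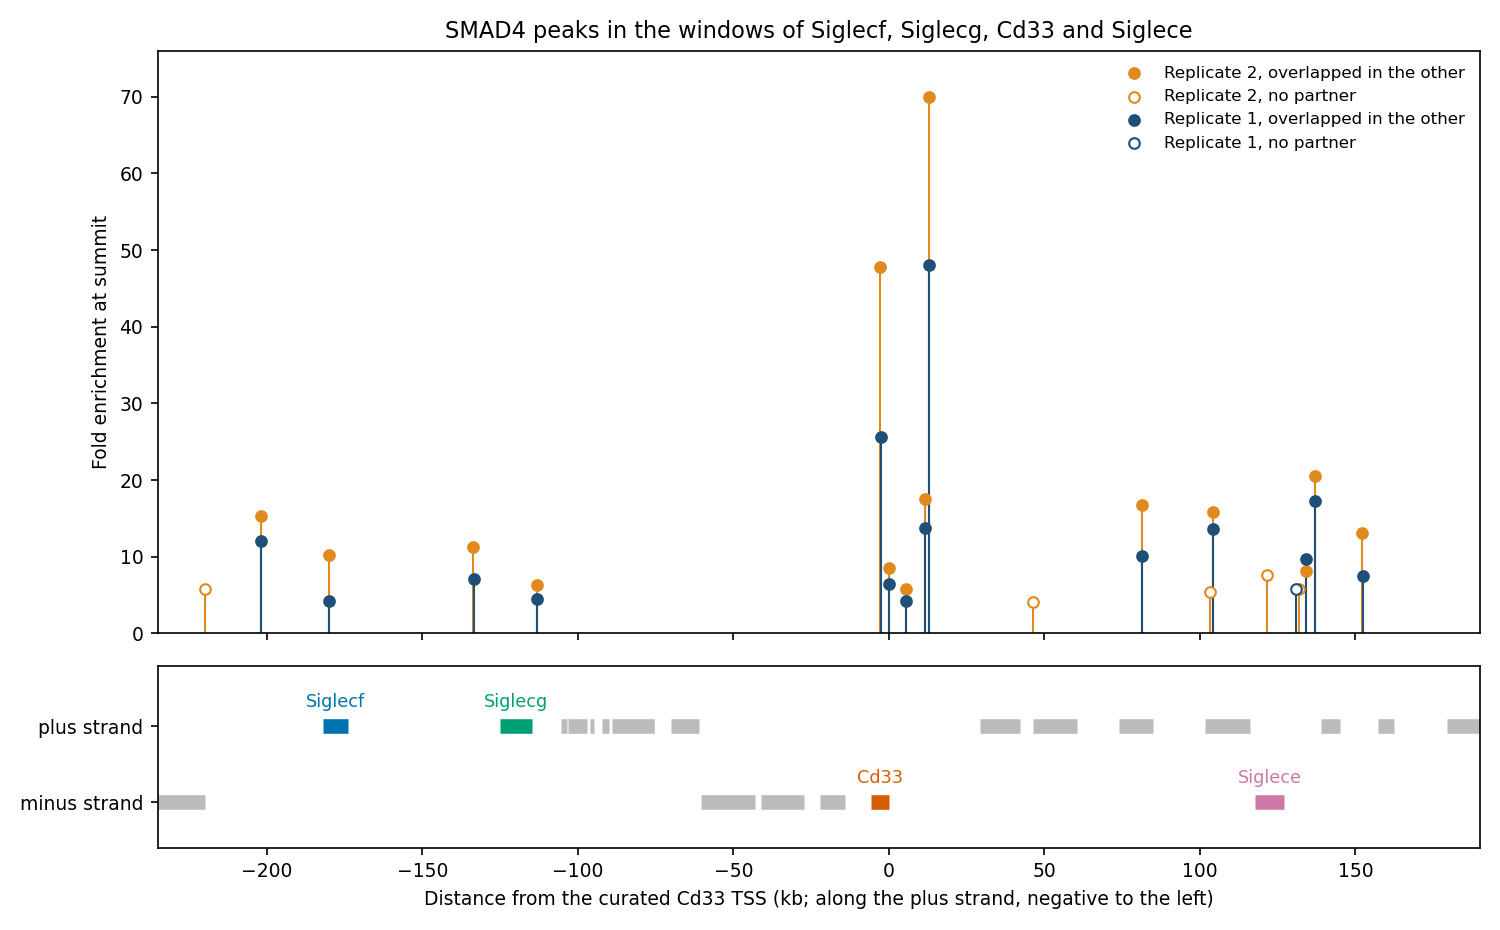
SMAD4 peaks in the windows of Siglecf, Siglecg, Cd33 and Siglece, with fold enrichment at the summit (vertical axis) against the distance from the curated Cd33 TSS in kb (horizontal axis), above the genes of each strand. Filled points overlapped a peak of the other replicate and open points did not, and the tallest stems, 48.1 and 69.9, stand 13.0 kb to the right of the Cd33 TSS.

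On chromosome 7, Siglecf, Siglecg, Cd33 and Siglece span 308.8 kb with 18 curated genes. The span held 12 shared regions, 3.89 per 100 kb, against 0.424 per 100 kb over the whole of chromosome 7 and 0.416 over the 20 chromosomes with peaks. The 12 include the regions 51.7 kb from Cd33 and 52.0 kb from Siglece, which lie outside every member window. The span is bounded by members, and no stretch with a like number of genes was compared. The regions were unevenly placed within it. The last Siglecg region and the first Cd33 region were 110385 bp apart. Between them lay only the shared region 51.7 kb from Cd33, which is nearest to Iglon5. The 5 Cd33 regions followed each other at spacings of 1450 to 6075 bp.

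As a group, Siglec regions were somewhat stronger than shared regions at large. Their median fold was 9.75 in replicate 1 (range, 4.18–48.1) and 13.1 in replicate 2 (range, 5.87–69.9), against 6.82 and 9.48 over all shared regions. Of the 15 regions, 10 were above the median of all shared regions by the smaller fold (8 of them at Cd33 or Siglece), 3 were in the top 10% and 1 was in the top 1%. Their median length was 474 bp against 440 bp. With 2 libraries of 1 condition, no test of these differences was made.

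**Figure D3:**
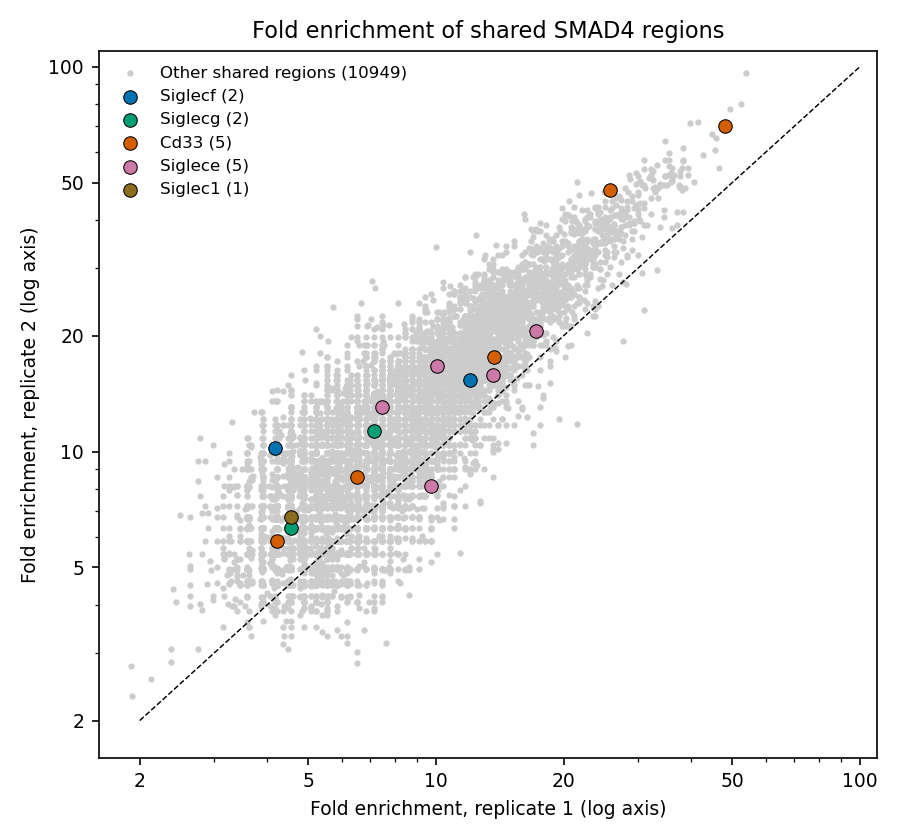
Fold enrichment of every shared region in replicate 1 (horizontal axis) and replicate 2 (vertical axis), both on log axes, with the 15 Siglec regions coloured by gene and the dashed line marking equal values. The region in the windows of both Siglecf and Siglecg is drawn as Siglecg. Of the Siglec regions, 14 lie above the line, and 2 Cd33 regions stand at the upper end.

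Fold and fragments did not favour the same replicate. Fold was higher in replicate 2 in 14 of 15 Siglec regions and in 87.2% of all shared regions, with a median ratio of 1.39 in both sets. The number of fragments at the summit was higher in replicate 2 in 7 of the 15 and in 47.1% of all. The control level behind most peaks was the genome-wide background, 2.08 fragments in replicate 1 and 1.22 in replicate 2, and it applied to 14 of 16 and 18 of 23 Siglec peaks. Divided by an assumed fragment length, the narrowest peak of each list (120 and 119 bp), they gave replicate 1 an estimated depth 1.69 times as high. The median peak rested on 17 fragments in replicate 1 and 14 in replicate 2.

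**Figure D4:**
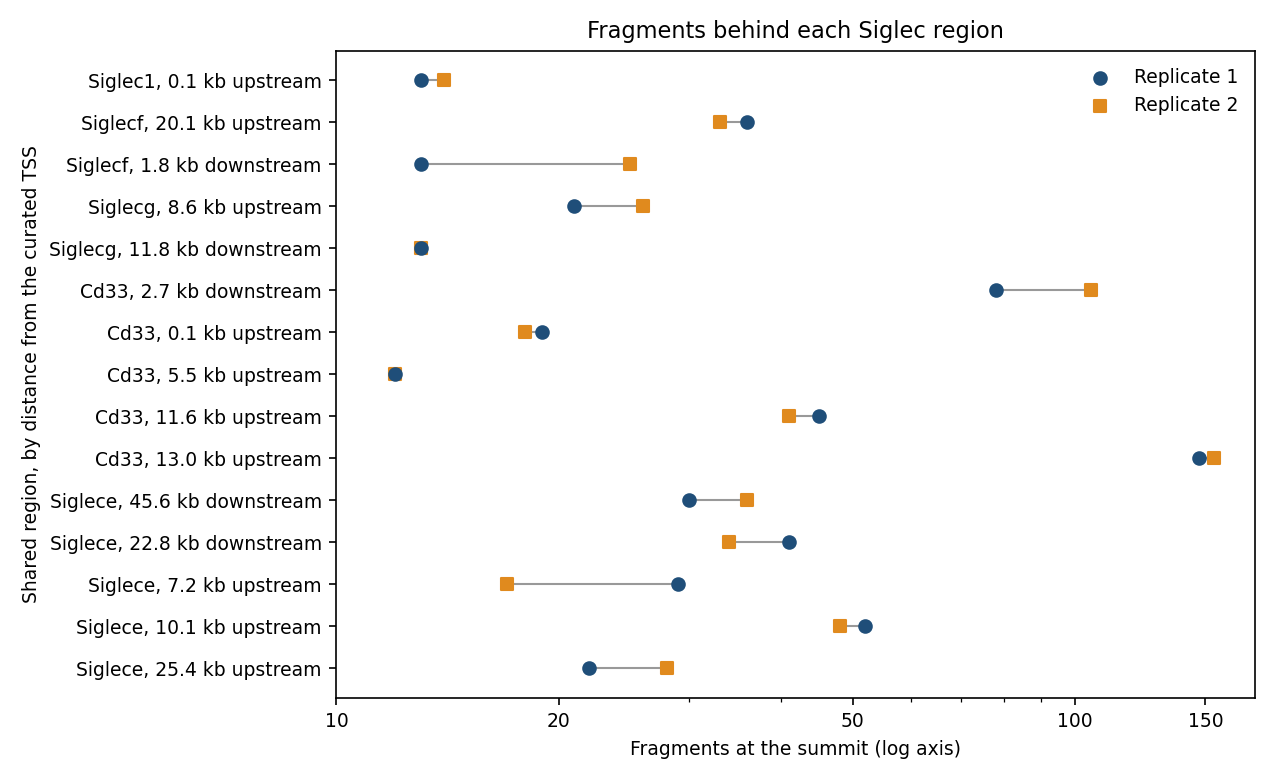
Fragments at the summit (horizontal axis, log scale) of the 15 Siglec regions in replicate 1 (circles) and replicate 2 (squares), with the regions named by gene and distance from the curated TSS. Counts run from 12 in both replicates at the Cd33 region 5.5 kb upstream to 147 and 154 at the region 13.0 kb upstream.

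Most Siglec peaks of replicate 1 were found again. In replicate 1, 15 of 16 peaks, or 93.8% (exact 95% binomial interval, 69.8–99.8), overlapped a peak of replicate 2, against 69.4% of all peaks. In replicate 2, 15 of 23, or 65.2% (42.7–83.6), had a partner, against 59.2% of all. Both intervals cover counting error only and treat neighbouring peaks as independent, so they are no test against all peaks. In replicate 1, Siglec peaks with a partner had a median fold of 9.75. All its peaks had 5.52 and those without a partner 4.52. In replicate 2 the values were 13.1, 6.77 and 5.41. Whether peak strength relates to the share with a partner was not tested. The 8 peaks without a partner in replicate 2 had folds of 4.06 to 7.67 and 8 to 16 fragments, and 3 of them were above the median fold of 6.77 over all peaks of that replicate.

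By annotation, 9 of the 15 Siglec regions were intergenic, 4 intronic and 2 in promoters, and none was in an exon or at a transcript end. Of all shared regions, 40.5% were intergenic, 49.3% intronic and 6.42% in promoters. The Siglec regions lay at a median of 4899 bp from the nearest TSS of any gene, against 18040 bp over all shared regions. The window rule places every Siglec region in or near a member gene, and shared regions at large have no such limit. The difference in distance is therefore partly set by the choice of regions, and a part of gene density was not tested.

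The DNA under the summits was searched on both strands for 13 strings, within 100 bp of the position. The string most often found was that of C/EBP factors in a loose form, TTNCNNAA, which was present in 12 of 15 Siglec windows and in 77.0% of all summit windows. Its strict form TTGCNNAA, each match of which is also a match of the loose form, was present in 4 of 15 windows (20.1 kb upstream of Siglecf, 11.8 kb downstream of Siglecg, and 10.1 and 25.4 kb upstream of Siglece), against 40.8% of all. Neither of the strongest Cd33 windows held the strict form. In windows of the same size 1 kb away from the summits of all regions, these strings were present in 37.8% and 8.59%.

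For factors of macrophage identity, the RUNX string TGTGGT was present in 5 of 15 Siglec windows and 26.4% of all, 3 of the 5 at Cd33. The AP-1 string TGANTCA was present in 3 windows and 12.3% of all. The nuclear receptor half-site AGGTCA was present in 4 and 15.4% of all. The PU.1 string GAGGAAG was found in 1 window, 11.6 kb upstream of Cd33, and in 17.6% of all, and the related ETS string CAGGAAG in 2 and 13.2% of all. The STAT5 string TTCNNNGAA was found once, in intron 3 of Cd33, against 8.07% of all, and the E-box CACGTG in none, against 3.65%.

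Of the strings bound by SMADs, GTCTG was present in 5 of 15 Siglec windows and 38.8% of all, a share close to the 36.9% of windows 1 kb away. Its longer form GTCTGG, which contains it, was present in 2 windows, 1.8 kb downstream of Siglecf and 11.6 kb upstream of Cd33, and 11.2% of all. The palindrome GTCTAGAC and the GC-rich string GGCGC were present in none of the 15, against 0.465% and 5.24% of all. The strongest window of the family, 13.0 kb upstream of Cd33, held only a loose C/EBP match and a RUNX match, and no SMAD string. With 15 windows these counts describe the family and were not tested.

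Repeat sequence was common around Siglece. More than 50% of the bases were soft-masked as repeats in 3 of 15 Siglec windows, against 4.13% of all, and all 3 were Siglece regions: 22.8 kb downstream (59.2% of bases), 7.2 kb upstream (61.7%) and 10.1 kb upstream (57.2%). No Siglec window had a copy elsewhere in the genome at 95% identity or more over 50 bp or more, except that 22.8 kb downstream of Siglece, which had 2 with a longest match of 58 bp. The GC content of the windows had a median of 41.8% (range, 31.3–50.2), against 43.8% over all.

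Genes that work with the Siglecs were counted in the same way, on lists of other Siglec-like lectins, signalling partners and the sialic acid pathway. Of the signalling partners, 13 of 14 genes had at least 1 SMAD4 region in the window, against 39.1% of all protein-coding genes. Of the 14, 10 were nearest to one, against 21.5% of all protein-coding genes. Neighbouring genes can hold the same region, so the genes of a list are not independent. The window includes the gene body and is larger for very long genes. The strongest regions had folds of 22.4 and 27.1 at Syk, a kinase of activating receptors, 17.9 and 33.0 at the ubiquitin ligase gene Cbl, 17.0 and 22.1 at Lyn, and 14.9 and 27.3 at Fyn, both Src family kinases. That of Fyn was nearest to the TSS of Gm31616. Ptpn11, the gene of SHP-2, had none. Ptpn6, the gene of SHP-1, named after its values were seen, had 2 in its window, at most 8.12 and 7.67, and neither was nearest to it.

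Over all protein-coding genes, the shares were 39.1% with a region in the window and 21.5% nearest to one. Among the other lectins, 2 of 3 had a region, 1 each in the windows of Mag and Siglec15. Of the 3, only Siglec15 was nearest to any, and Siglech had none. All 4 sialidases, which remove sialic acid, had at least 1 region in the window, with strongest folds of 9.10 and 15.8 at Neu1, 6.50 and 7.22 at Neu2, 5.37 and 5.96 at Neu3, and 3.88 and 7.12 at Neu4. Only Neu1, the lysosomal enzyme, was nearest to one, and the Neu2 region was in fact nearest to Inpp5d, whose product SHIP-1 is on the list of signalling partners.

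Again, 39.1% of all protein-coding genes had a region in the window and 21.5% were nearest to one. Of the 20 sialyltransferases, which add sialic acid to glycans, 6 had a region in the window and 5 were nearest to one. The strongest had folds of 24.4 and 29.8 at St8sia4, 18.8 and 28.4 at St6galnac3, 17.5 and 21.2 at St3gal6, and 14.0 and 14.4 at St3gal1. That of St6galnac3 was nearest to the TSS of 1700012D16Rik, at 107712 bp, and no region was nearest to St6galnac3. Among the 14 without one were St3gal2, St3gal3, St3gal5 and St6gal2. Of 7 genes of sialic acid synthesis and turnover, 3 had a region (Cmah with folds of 4.22 and 6.32, Slc35a1 with 4.55 and 4.06, and Nans with 3.58 and 5.86), all below the medians of shared regions, and 2 were nearest to one. Cmas, Gne, Nanp and Npl had none. Of 6 genes for ligands and partners on glycoproteins, 3 had a region (Ptprc, 13.3 and 23.0; Muc1, 5.32 and 6.66; Lgals3bp, 4.55 and 4.51), 1 was nearest to one, and Cd24a, Hmgb1 and Spn had none.

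Marker genes of cell types were set beside these counts. Of all protein-coding genes, 39.1% had a region in the window and 21.5% were nearest to one. No list was tested against these shares. All 10 AM markers, of which Siglecf is one, had a region in the window and 9 were nearest to one. The strongest were in the windows of Chil3, Pparg, Car4 and Fabp4. That of Fabp4 was nearest to Fabp12, and Fabp4 was nearest to none. A region was in the window of 0 of 5 T cell markers (Cd3d, Cd3e, Cd3g and Cd4 among them), 3 of 6 eosinophil markers (Ccr3, Alox15 and Prg2), 3 of 5 neutrophil markers (S100a8, Cxcr2 and Elane), 1 of 5 lung epithelial markers (Scgb1a1) and 4 of 5 markers of lymph node and marginal zone macrophages (Marco, Spic, Siglec1 and Nr1h3). Those nearest to a region numbered 0, 3, 1, 1 and 2. Marco is on both macrophage lists, so its regions count in each. The strongest regions in the windows of Spic and Nr1h3 were nearest to Gm4925 and Ddb2. Eosinophils also carry Siglec-F, and a part of other cells in the Siglec regions was not tested.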

How the data were processed

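SMAD4 binding was measured in 2 immunoprecipitated libraries of AMs, and 2 inputs entered only through the control level of the peaks. The members and gene lists were chosen with earlier results of these data known. Per the study's methods and labels, Cutadapt and Bowtie2 (build mm10) served for trimming and alignment, and the authors removed duplicates and reads of mapping quality 30 or less, and called peaks per sample with MACS3 at q 0.05 against input. The values deposited per peak are a fold ratio of the pileup at the summit to the control level, with 1 added to each, a −log10 p-value and a −log10 q-value. The score that the authors deposited repeats the q-value and was not used. Library totals were not used here. The pileup and control level were solved from fold and p, and the solution was tested on simulated data.

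Gene models were 45657 curated RefSeq transcripts (GRCm38), and sequences came from the same release. Promoters ran from 1 kb upstream to 100 bp downstream of a TSS. A shared region was placed at the mean of its summits. Named were the members with their regions, the genes nearest to these, and from each list up to 4 genes with the strongest region and up to 4 without one in alphabetical order. Intervals are exact (Clopper-Pearson). No test between groups was possible with 1 condition. Alternatives changed the overlap, the q and fold limits, the window, the annotation, the ranking and the string window, or left out a replicate. Python 3.11.15, pandas 2.3.3, scipy 1.17.1, pysam 0.24.0 and blastn 2.17.0 were used. The count of 1 marker list is not reported here.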

Additional observations from a re-analysis of the deposited data

How the results depend on the processing

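Of the values recomputed, 97 stayed within 1.5 times of the reported count or within its error and 36 moved. The 15 Siglec regions became 7 with a window of 10 kb, 23 with 100 kb and 8 when only regions nearest to a member were kept. Within 10 kb, Siglecf, Siglece and Siglecg had 1 each and Cd33 3. Within 100 kb, Siglecf and Siglecg had 5 each, Cd33 8 and Cd22 4. By nearest TSS, Siglecf and Siglecg had 1 each and Siglece 0. With 50% reciprocal overlap or summits within 100 bp, Siglec1 had 0, and with a fold of at least 5 in both lists Siglec1 had 0 and Siglecg 1. On peaks of a single replicate the total was 16 to 23, Siglec1 had 1 to 4 and Siglece 6 to 8, the top 1% held 1 to 2 regions and the median percentile was 70.2 to 74.9 in place of 65.0. Ranked by pileup over background, the strongest region was number 10 in place of 4. With windows of 50 bp each side, ETS and RUNX strings were in 1 window each, STAT5 in 0, the half-site in 2, GTCTG in 3 and GTCTGG in 1. With 200 bp, PU.1 and AP-1 were in 5 each, RUNX in 9, the E-box in 1 and GTCTGG in 4. Other windows, filters and single replicates change by construction what can be counted, and the cause of the change in rank was not tested. No paired analysis was possible because replicate numbers follow the accession order, the inputs have no peak list and no test was run. An annotation with GENCODE or predicted transcripts, added after the data were seen, left 7 or 8 regions nearest to a member. The weaker regions rest on as few as 12 fragments in each replicate, and the effect of depth was not tested.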

Other observations

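The whole sequences of the 15 Siglec regions were compared with each other by blastn. Only 1 pair aligned: the regions 10.1 kb upstream and 22.8 kb downstream of Siglece were 71.9% identical over 139 bp. Soft-masked repeats made up 37.5% and 41.5% of the bases of these regions. No region of a Siglec gene aligned with that of another, although the genes themselves are related.

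The GENCODE annotation also places the starts of genes of other kinds near Siglec regions. The regions 7.2 and 10.1 kb upstream of Siglece lay 3941 and 1046 bp from a start of Gm36546, that 8.6 kb upstream of Siglecg 5101 bp from a start of Gm44540, and that 20.1 kb upstream of Siglecf 13297 bp from a start of Gm44539.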
